A study of Mus musculus with 8 samples.

Results

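The regions described here are 574 places inside mouse protein-coding genes where ZFP281 was mapped by chromatin immunoprecipitation sequencing (ChIP-seq) in both primary tumour (PT) and early lesion (EL) spheres. Each deposited list gives the summits of 1 library, that is, the single positions of highest signal. Joining summits of all lists that lay within 200 bp of each other gave 19317 regions. Of these, 2886 were shared, with a summit in at least 2 of the 3 PT libraries and at least 2 of the 3 EL libraries. A shared region was kept when it fell inside a protein-coding gene and its distance to either end of any such gene (a gene boundary, in RefSeq annotation of mm10) exceeded 5 kb. The members made up 19.9% of the shared regions and lay in 484 genes. Members were chosen by which lists held a summit there and by position, so their number and their presence in the lists are descriptions.

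All mice were of the FvB strain and carried the MMTV-HER2/Neu transgene, in which a mammary tumour virus promoter drives the oncogene mainly in mammary epithelium. PT spheres (3 libraries) came from animals older than 20 weeks with primary tumours, labelled as breast tumour tissue. EL spheres (3 libraries) came from mice aged 14 to 18 weeks in which no tumour could be felt, whose tissue is labelled mammary lung. Both kinds of cells, labelled breast cancer cells, grew for 7 days as mammospheres on ultra-low adhesion plates. The labels call the libraries biological replicates without naming the animals, so p-values measure only the spread between these libraries, which may be partly technical. Each group also has 1 input library, which was not analysed here, and no expression was measured, so the tissue labels could not be checked against marker genes.

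ZFP281 is a zinc finger transcription factor that binds G-rich DNA such as GGGGAGGGG. It is known from the control of pluripotency in embryonic stem cells and from work on epithelial-mesenchymal transition in cancer. Sequence inside a gene and far from its ends can hold enhancers, which act on a promoter at a distance, or alternative promoters from which shorter transcripts start. A summit position alone does not tell these apart.

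The members closest to the top of every list were mostly not far from a transcription start. Of the 10 members with the highest lowest list percentile (the share of a library's summits with the same or a lower deposited score), 7 lay within 1 kb of a transcript start that RefSeq annotates inside the host gene. "Distal" therefore holds for the ends of the gene, not for all its starts. The sequences of 6 such internal start windows are shown because the summits of these members lay in or at the edge of them. For Nfyc, Pafah1b2 and Hnrnpf they belong to leading members. Those of Ptpa and Bcl9, also leading members, are not shown, since nearly all their summits lay beyond the printed bases. Csrp1, Mga and Epb41 were added after their values were seen, since the same G-rich word lies within 20 bp of their median summit. Each runs from 250 bases before the start to 30 bases after it, on the strand of the gene, from RefSeq's table of assembly GRCm38.p6, the mm10 build. Capitals mark GGGGAGGGG or its reverse complement CCCCTCCCC, searched on both strands (copies on 1 strand can overlap each other, copies on opposite strands cannot).
Nfyc: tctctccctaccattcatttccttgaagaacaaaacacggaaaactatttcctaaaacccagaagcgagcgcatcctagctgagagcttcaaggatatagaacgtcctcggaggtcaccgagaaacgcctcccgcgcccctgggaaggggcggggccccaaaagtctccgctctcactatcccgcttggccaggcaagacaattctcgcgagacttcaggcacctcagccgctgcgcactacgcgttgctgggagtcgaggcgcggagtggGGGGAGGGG
Pafah1b2: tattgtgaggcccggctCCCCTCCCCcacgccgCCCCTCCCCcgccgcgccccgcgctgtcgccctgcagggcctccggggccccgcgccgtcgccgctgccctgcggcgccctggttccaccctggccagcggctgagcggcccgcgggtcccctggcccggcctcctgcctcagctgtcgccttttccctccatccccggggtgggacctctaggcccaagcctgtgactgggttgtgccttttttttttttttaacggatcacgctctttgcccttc
Hnrnpf: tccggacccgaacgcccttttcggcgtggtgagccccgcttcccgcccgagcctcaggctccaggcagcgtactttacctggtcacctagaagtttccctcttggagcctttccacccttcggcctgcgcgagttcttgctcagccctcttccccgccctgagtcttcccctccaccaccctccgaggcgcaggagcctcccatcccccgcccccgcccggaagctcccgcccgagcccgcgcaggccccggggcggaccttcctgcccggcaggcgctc
Csrp1: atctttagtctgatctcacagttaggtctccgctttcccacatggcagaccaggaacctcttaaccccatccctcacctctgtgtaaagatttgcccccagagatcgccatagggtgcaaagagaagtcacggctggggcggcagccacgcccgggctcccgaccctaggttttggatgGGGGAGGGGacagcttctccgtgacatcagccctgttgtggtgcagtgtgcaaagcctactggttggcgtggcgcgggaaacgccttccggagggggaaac
Mga: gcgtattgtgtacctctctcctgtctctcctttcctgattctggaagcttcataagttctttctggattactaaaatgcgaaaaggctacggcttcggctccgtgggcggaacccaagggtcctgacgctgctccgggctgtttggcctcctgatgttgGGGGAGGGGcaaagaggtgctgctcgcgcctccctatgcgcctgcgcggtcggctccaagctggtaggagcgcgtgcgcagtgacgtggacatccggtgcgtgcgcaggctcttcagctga
Epb41: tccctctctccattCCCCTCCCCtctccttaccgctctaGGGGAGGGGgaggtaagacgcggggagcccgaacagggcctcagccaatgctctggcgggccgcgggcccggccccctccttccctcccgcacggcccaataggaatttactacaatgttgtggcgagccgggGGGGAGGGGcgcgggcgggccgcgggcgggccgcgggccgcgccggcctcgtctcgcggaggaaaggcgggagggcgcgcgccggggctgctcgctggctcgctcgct

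The windows lie at chr4:120825712-120825991 (minus strand) for Nfyc, chr9:45984357-45984636 (minus strand) for Pafah1b2 and chr6:117917044-117917323 (plus strand) for Hnrnpf. The others lie at chr1:135728917-135729196 (plus strand) for Csrp1, chr2:119896978-119897257 (plus strand) for Mga and chr4:132049049-132049328 (minus strand) for Epb41. In Nfyc, which encodes a subunit of the CCAAT-binding factor NF-Y, the word begins 21 bases after the start, and the summits of the 6 libraries lay between 11 bases before and 49 bases after it. In Pafah1b2, a subunit of a platelet-activating factor acetylhydrolase, the words begin 233 and 217 bases before the start and the summits spanned 258 to 220 bases before it. The summits of Csrp1, a LIM domain protein, spanned 79 to 22 bases before the start around a word that begins 71 bases before it. In Mga, a partner of MAX in the MYC network, the word begins 91 bases before the start and the summits spanned 119 to 44 bases before it. In Epb41, the membrane skeleton protein 4.1R, the window holds the word in several copies, the nearest to the start beginning 78 bases before it, with summits 108 to 23 bases before it. Bcl9, a coactivator of beta-catenin, had its words 170 and 89 bases before the start but its summits 32 to 149 bases after it. The summits of Ptpa lay 29 to 61 bases after its start and those of Hnrnpf 169 to 62 bases before its start. Neither Ptpa, an activator of protein phosphatase PP2A, nor Hnrnpf, a splicing factor, had the word in its window.

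Over all members on the chromosomes with start windows, which leaves out chromosome 18 (not analysed here), 113 of 562 (20.1%, 95% Wilson interval 17.0% to 23.6%) lay within 1 kb of an annotated start. Across every distal region inside a gene, found in any library, that share was 9.77%. Among the distal regions inside genes that were not shared it was 8.54% (404 of 4730), and among shared distal regions between genes 11.1% (45 of 407). Sequence within 1 kb of a start made up 7.57 Mb, or 0.916%, of the 827 Mb that meet the position rule. Members numbered 149 per 10 Mb there and 5.48 per 10 Mb in the rest, a ratio of 27.2. The 8.54% of unshared distal regions inside genes was also above 0.916%. A higher density near starts was therefore not particular to members. Of the 50 leading members, 46 lay on chromosomes with start windows, and 19 of these were near a start. In 95 of the 113 cases the start belonged to the host gene, and in 18 to a long noncoding RNA (lncRNA) gene. The middle of the region lay a median of 5 bp downstream of the start (interquartile range -110.5 to 336 bp, negative upstream), with 56 upstream, 57 downstream and 65 within 250 bp.

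The share near a start was larger among regions found in 4 to 6 libraries than among those found in 1 to 3. Among distal regions inside genes it was 7.58%, 9.63%, 8.15%, 14.4%, 19.5% and 23.4% for those with a summit in 1, 2, 3, 4, 5 and 6 libraries. The 273 members in all 6 libraries outside chromosome 18 held the last of these values. Every region found in 5 or 6 libraries was a member, so only those in 4 libraries allow members and other regions to be compared. Of these 277 regions 40 lay near a start, but only 3 of the 53 members among them did. At that number of libraries, members were thus less often near a start than the other regions. Of 51 regions with a summit in all 3 PT libraries and in no EL library, 3.92% lay near a start, and of 589 in all 3 EL libraries and no PT library, 6.11%. These shares are descriptions, and the part of signal strength in them was not tested.

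**Figure D1:**
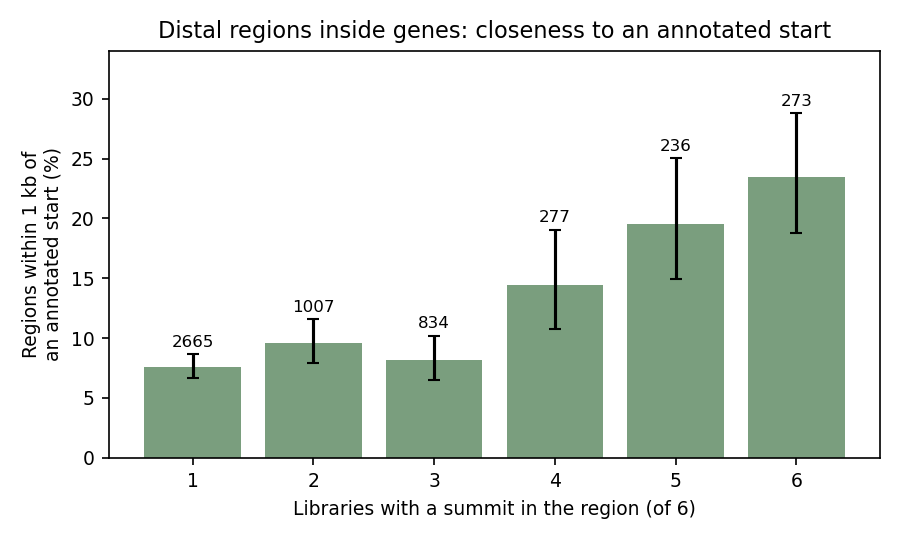
Share of distal regions inside genes within 1 kb of an annotated transcript start (y axis, percent) by the number of libraries with a summit (x axis), with 95% Wilson intervals that cover counting error only. The share is 7.58% for 1 library and 23.4% for all 6.

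**Figure D2:**
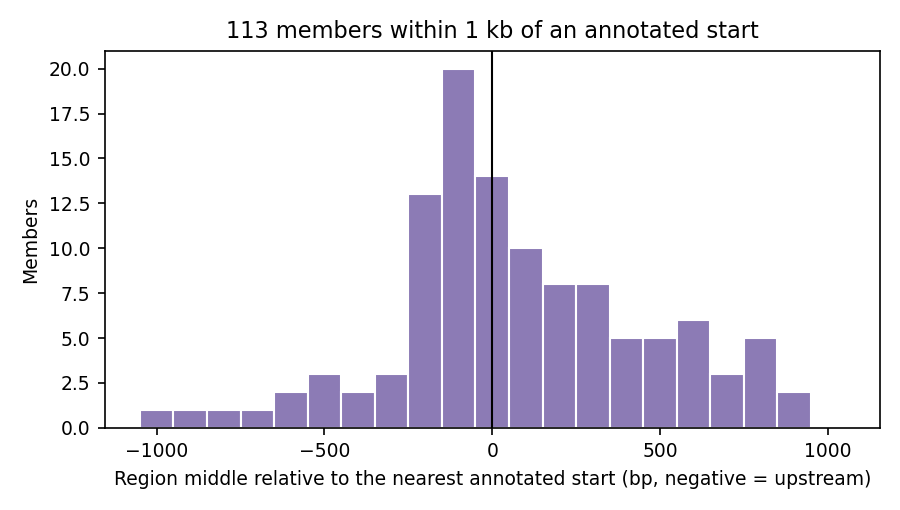
Distance of the middle of each near-start member from the nearest annotated start (x axis, bp, negative upstream) against the number of members (y axis). The 113 members centre on the start, with 56 upstream and 57 downstream.

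Members near a start also ranked higher within every list than the other members. Their median list percentiles were 61.9, 70.6 and 76.2 in PT replicates 1, 2 and 3, against 58.9, 58.6 and 68.3 for the other members, and 82.7, 90.3 and 73.6 in EL replicates 1, 2 and 3, against 70.5, 82.0 and 66.0. The difference averaged 8.52 ± 3.35 percentile points (SD, n = 6 libraries) and was positive in 6 of 6 libraries (exact sign-flip permutation test over libraries, two-sided, p = 0.031, the smallest that 6 libraries allow). This comparison was added after the data were seen, and the libraries score the same regions. With starts within 250 bp it was 5.33 (exact p = 0.0625), with deposited scores of at least 10 it was 7.73 (exact p = 0.0625), and with merging at 50 bp it was 13.4 (exact p = 0.031).

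The G-rich word was frequent in the start windows under members. It was present in 33 of the 63 windows that overlapped a member (52.4%, Wilson interval 40.3% to 64.2%), against 6.37% of all 32851 windows in the RefSeq table. Windows under shared regions at a gene boundary, within 1 kb of it, held it in 45.6% (296 of 649). Windows under other distal regions inside genes held it in 25.5% (36 of 141), and distal windows inside genes with no summit in any library in 4.32% (176 of 4074). Base composition moved with this: median GC content was 67.0% under members, 67.7% at boundaries, 62.0% under other distal regions and 50% in windows with no summit. The part of GC content in the share was not tested. By region, 56 members (9.96%, against 3.42% of all distal regions inside genes) overlapped a window, and 29 of them overlapped one with the word. The centre of the nearest word lay a median of 18.5 bp from the median summit (interquartile range 10.5 to 46 bp), and within 50 bp in 22 of the 29. Seen from the starts, 148 of the 4284 that RefSeq places over 5 kb from every boundary and inside a gene (3.45%) had a member within 1 kb.

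Several internal starts belong to genes with known alternative first exons. Dnmt3a, a de novo DNA methyltransferase, held 2 members, both within 1 kb of a Dnmt3a start, at chr12:3807558-3807846 and chr12:3891376-3891669. The second had list percentiles of 8.4, 12.9 and 67.3 in PT replicates 1 to 3 and of 81.7, 84.1 and 66.0 in EL replicates 1 to 3. It ranked low in 2 PT lists and in the upper part of the other lists. Cdkn2a, the locus of the cell cycle inhibitors p16 and p19 (ARF), held a member 138 bp from its downstream start, at chr4:89282330-89282529. It had percentiles of 58.9 and 34.3 in PT replicates 1 and 3, no summit in PT replicate 2, and percentiles of 71.6, 90.0 and 30.6 in EL replicates 1 to 3. Members 102 bp, 30 bp and 93 bp from an internal start lay in Gata3, a luminal transcription factor, in Grb2, an adaptor of receptor tyrosine kinases, and in Rarg, a retinoic acid receptor. The Gata3 and Grb2 members were found in 5 libraries, with lowest list percentiles of 18.4 and 3.04, and their start windows lacked the G-rich word. The Rarg member was found in all 6, with a lowest percentile of 48.5. Grb2 falls outside the naming rule and was named after its values were seen.

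The strongest members had scores near the top of all 6 lists. In Srrm2, a splicing coactivator, the region chr17:23803497-23803534 had percentiles of 99.8, 99.9 and 100 in PT and 99.9, 99.9 and 99.9 in EL. Its nearest start was that of the lncRNA gene Gm52285, 238 bp away. Nfic, which encodes nuclear factor I/C, held the second strongest member at chr10:81413961-81414022, with 98.8, 99.5 and 99.8 in PT and 99.6, 99.7 and 99.3 in EL. That region had no annotated start within 1 kb. The Nfyc region chr4:120825692-120825752 had 98.4, 98.7 and 98.8 in PT and 99.3, 99.6 and 99.0 in EL. The Ptpa region chr2:30441882-30441914 had 97.7, 98.9 and 99.4 in PT and 100, 100 and 99.9 in EL. Both lay at the internal starts described above. Pafah1b2 (chr9:45984606-45984644), Hdlbp (chr1:93445239-93445276), Bcl9 (chr3:97227215-97227332) and Hnrnpf (chr6:117917125-117917232) also lay near starts, with lowest percentiles of 97.3, 95.5, 94.9 and 94.0. Cdkl4 (chr17:80553416-80553464), a kinase, and Clip2 (chr5:134540094-134540207), a microtubule-linking protein, had lowest percentiles of 96.4 and 93.6 with no start within 1 kb. In all, 17 members stayed above the 90th percentile in every list.

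Most members were not of this kind. Of the 281 members found in all 6 libraries, the lowest percentile had a median of 48.2, and for 80 it was under 25. The others were found in 2 libraries of each group (54 members), 2 PT and 3 EL (161) or 3 PT and 2 EL (78). Just short of the rule lay 130 distal regions inside genes with 1 PT and 2 EL libraries, 187 with 1 PT and 3 EL, 69 with 2 PT and 1 EL and 53 with 3 PT and 1 EL. On the distance limit, the closest members inside it lay in Pik3ip1 (5083 bp from a boundary, chr11:3337823-3337888) and Coro2b (5085 bp, chr9:62531852-62531959). The Pik3ip1 region had percentiles of 34.6 and 75.8 in PT replicates 2 and 3 and of 75.9, 89.5 and 82.9 in EL. The Coro2b region had 44.3 and 42.6 in PT replicates 1 and 2 and 88.0, 93.2 and 79.8 in EL. The closest regions outside it lay in Ahnak2 (4928 bp, chr12:112797651-112797730), with 25.9 and 15.7 in 2 PT libraries and 72.7 and 30.2 in 2 EL libraries, and in Il11 (4919 bp, chr7:4777292-4777386), with 13.4, 41.4 and 64.3 in PT and 71.1, 96.2 and 77.3 in EL.

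The lists differ in length, with 2897, 4030 and 6033 summits in PT replicates 1, 2 and 3 and 8588, 15770 and 7055 in EL replicates 1, 2 and 3, and read depth is unknown. Members with a summit numbered 417, 536 and 554 in PT and 552, 570 and 468 in EL. They held 14.4%, 13.3% and 9.18% of the PT summits and 6.43%, 3.61% and 6.63% of the EL summits, with shares highest in the shortest lists. Cut to equal lengths, the mean PT share minus the mean EL share was -0.207 percentage points, against 6.73 on the full lists. Where a member had no summit in a library, a summit of that library lay within 1 kb for 5 of 157, 3 of 38 and 5 of 20 such members in PT, and for 3 of 22, 3 of 4 and 9 of 106 in EL. Median member percentiles were 59.3, 60.9 and 70.1 in PT and 74.3, 83.5 and 67.2 in EL and were highest in the longest list.

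Set against shared regions at a gene boundary in the same list, members had a median percentile that differed by 0.414, -2.10 and -5.54 points in PT replicates 1, 2 and 3 and by -6.59, -6.32 and -11.0 in EL replicates 1, 2 and 3. Members were thus lower in 5 of 6 libraries, by a mean of -5.18 ± 3.95 points (SD, n = 6; exact sign-flip permutation test, two-sided, p = 0.0625). This does not pass 0.05. The difference was -1.67 at equal list lengths (exact p = 0.3125) and -2.41 with scores of at least 10 (exact p = 0.375), and the exact p was 0.031 with merging at 50 bp and with all annotated genes as boundaries. The difference was -2.41 ± 2.99 in PT and -7.96 ± 2.61 in EL (SD, n = 3 each; exact permutation test, two-sided, p = 0.1, the smallest that 3 against 3 allows). Against shared distal regions between genes the difference was 0.156 ± 2.29 points, with either sign in 3 libraries (n = 6, exact sign-flip p = 0.9375). Members were found in all 6 libraries in 49.0% of cases, boundary regions in 59.5% and distal regions between genes in 50.6%.

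**Figure D3:**
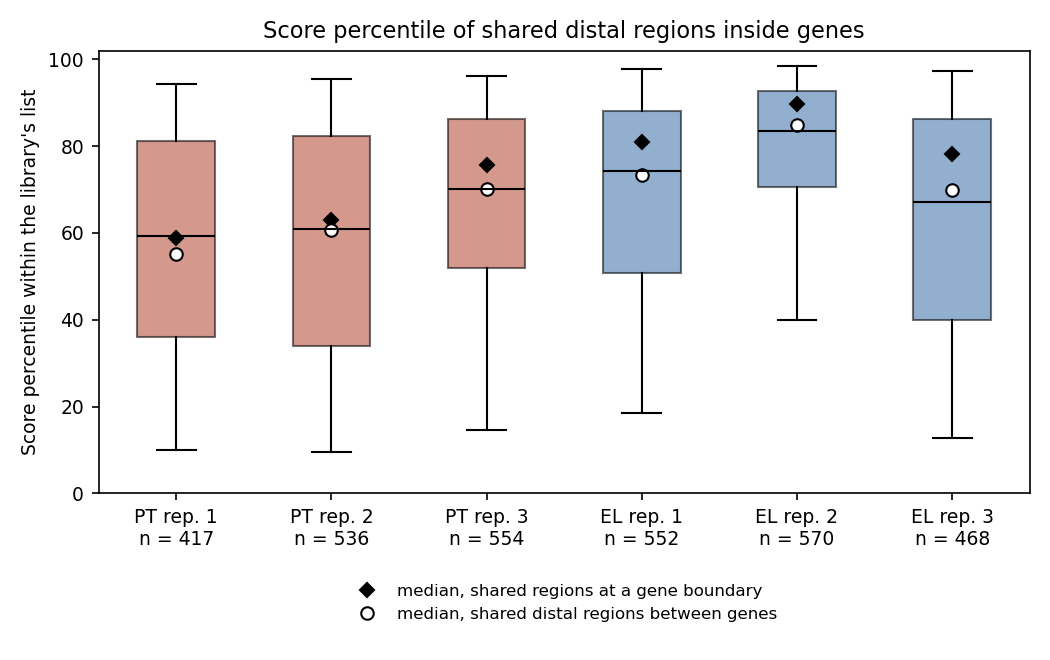
List percentile of the members' summits (y axis) in each of the 3 PT and 3 EL libraries (x axis), as boxes of the middle 50% with medians and whiskers at the 5th and 95th percentiles, beside the medians of shared boundary regions and of shared distal regions between genes. Member medians run between 59.3 and 83.5, and in 5 of 6 libraries they lie under the boundary median.

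To compare PT with EL on the same scale, each library was ranked over the same 1573 regions found in all 6 lists, of which 281 are members. The median rank of the members, as a percentile of those regions, was 50.2, 51.4 and 45.1 in PT replicates 1, 2 and 3 and 44.0, 40.5 and 38.1 in EL replicates 1, 2 and 3. All 3 PT values were above all 3 EL values, with means of 48.9 ± 3.34 in PT and 40.9 ± 2.97 in EL (SD, n = 3 each), a difference of 8.07 points (exact permutation test, two-sided, p = 0.1, the smallest possible). With lists of equal length the difference was 1.49 (exact p = 0.9), and without PT replicate 1 it was 4.76 (exact p = 0.3). Shared boundary regions had medians of 51.0, 51.4 and 52.7 in PT and 53.5, 54.8 and 54.6 in EL. Distal regions between genes had 49.8, 47.7 and 47.5 in PT and 41.8, 40.3 and 43.2 in EL, so both distal classes had lower median ranks in EL.

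Region by region, all 3 PT ranks lay above all 3 EL ranks in 80 members (28.5%), against 17.7% of all 1573 regions. All 3 PT ranks lay below in 50 members (17.8%), against 18.6% of all regions. The share above was 12.6% among boundary regions and 25.2% among distal regions between genes. At equal list lengths 28 of the 157 members in all 6 lists were above (17.8%) and 30 below (19.1%). Of all regions, 15.8% were then above and 16.1% below. Of the members outside chromosome 18, 11 of the 78 above (14.1%), 11 of the 50 below (22.0%) and 42 of the 145 with overlapping ranks (29.0%) lay near a start.

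The largest rank differences in favour of PT were at Actn4, Foxp1, Mark2, Sorl1 and Sec16a. In Actn4, an actin crosslinking protein, the region chr7:28923913-28923986 ranked at 90.1, 92.2 and 87.2 in PT and at 1.3, 11.6 and 7.4 in EL. In Foxp1, a forkhead factor, the region chr6:99031268-99031340 ranked at 73.8, 93.9 and 79.5 in PT and at 0.4, 8.2 and 9.1 in EL. Every PT rank of these regions was above 70 and every EL rank below 12. In Mark2, a polarity kinase, the ranks were 95.9, 90.5 and 86.7 in PT and 17.0, 27.4 and 22.9 in EL. Sorl1, a sorting receptor, had mean ranks of 86.2 in PT and 18.2 in EL. Sec16a, a scaffold of endoplasmic reticulum exit sites, had 91.8, 77.9 and 85.7 in PT and 30.7, 18.9 and 6.6 in EL. None of the 5 had an annotated start within 1 kb. Actn4 and Foxp1 were no longer members at equal list lengths or with scores of at least 10, and Sorl1 was not at equal list lengths.

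In the other direction stood Tpcn1, Bcl9l, Rarg, Nfic and Auts2. In Tpcn1, an endolysosomal channel, the region chr5:120578744-120578855 ranked at 31.0, 4.7 and 13.0 in PT and at 77.8, 82.6 and 61.7 in EL. In Bcl9l, a relative of Bcl9 in Wnt signalling, the region chr9:44488902-44489217 ranked at 12.7, 43.5 and 17.6 in PT and at 81.1, 80.6 and 81.1 in EL. Another member of Bcl9l, chr9:44494318-44494484, went the other way, with 70.2, 84.7 and 34.9 in PT and 12.9, 17.6 and 29.8 in EL. The Rarg region chr15:102249006-102249033 ranked at 24.2, 31.6 and 22.0 in PT and at 86.0, 83.3 and 75.6 in EL. Auts2, linked to neurodevelopment, had ranks of 8.4, 2.1 and 1.6 in PT and 66.7, 49.3 and 56.3 in EL. The Rarg and Nfic regions, too, had no annotated start within 1 kb. The start windows gave no strand for Tpcn1, Bcl9l or Auts2, so starts of these genes may be missing from them. For these regions the nearest listed start belonged to another gene, so closeness to a start of the host gene is unknown. With scores of at least 10 the Tpcn1, Bcl9l and Auts2 regions were no longer members, and Auts2 was not at equal list lengths either.

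**Figure D4:**
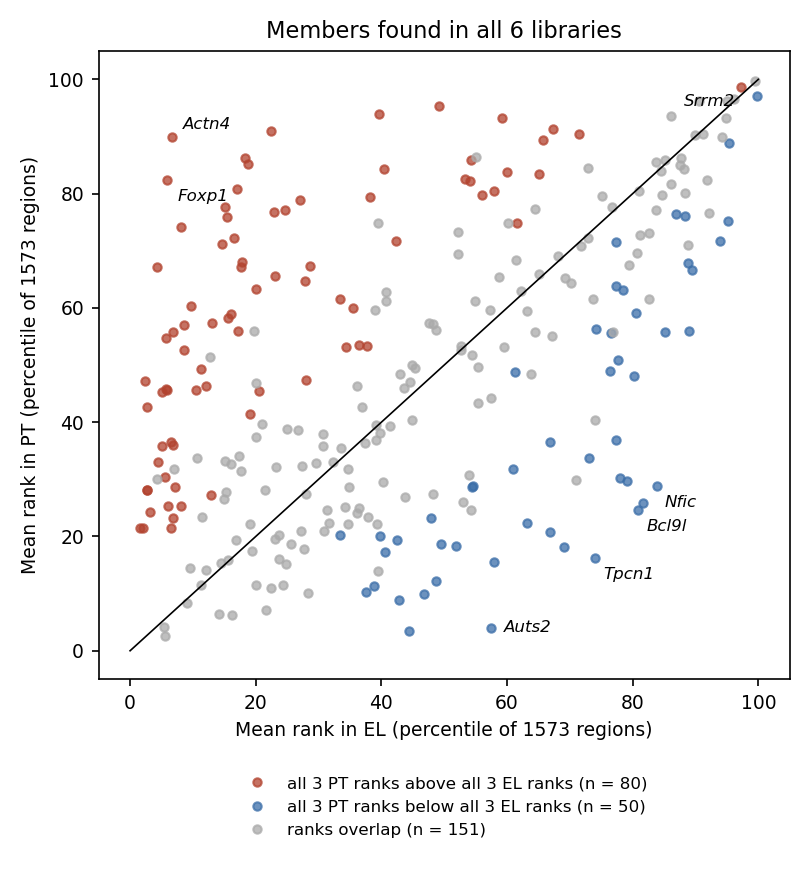
Mean rank of each of the 281 members found in all 6 libraries over the 1573 regions found in all 6, in PT (y axis) against EL (x axis), both as percentiles. Red points (80) have all 3 PT ranks above all 3 EL ranks, blue points (50) all below, and grey points (151) overlap; the line marks equal ranks.

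Members were unevenly spread over genes. A single member lay in 421 genes, 2 in 46, 3 in 9 and 4 or more in 8, so 155 members (27.0%) shared a gene and are not independent of each other. Of the 13809 genes long enough to hold such a region, 3.5% held one. Holding genes had a median length of 86.9 kb, against 33.7 kb for all eligible genes, and the share was larger among longer genes, with 1.22% of genes up to 30 kb, 3.02% of those of 30 to 60 kb, 6.12% of those of 60 to 120 kb and 8.78% of longer ones. The median distance of a member to the nearest gene boundary was 19.1 kb. Of the 461 members whose host gene could be oriented, 193 (41.9%) lay in the first of 3 equal parts of the gene, 170 (36.9%) in the middle and 98 (21.3%) in the last, at a median of 29.0 kb from the 5′ end. Summits of the same member in different libraries lay a median of 33 bp apart within PT, 35 bp within EL and 34 bp between PT and EL. The rule joined summits within 200 bp of each other, so a short spacing is in part built in.

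Nfic held the most members, 6 within 35.7 kb, and they did not share one PT to EL pattern. Its regions at chr10:81412027-81412176 and chr10:81413961-81414022 had PT ranks above all EL ranks. The first of these ranked at 88.7, 84.5 and 84.2 in PT and at 64.3, 55.4 and 43.2 in EL. The second was near the top in both groups and barely separate, with 97.90, 98.79 and 99.11 in PT and 97.84, 96.82 and 97.01 in EL. The Nfic region at chr10:81402089-81402161 was the reverse of the first, with 36.5, 37.1 and 13.0 in PT and 86.5, 76.1 and 88.8 in EL. The 2 further Nfic members found in all 6 libraries had overlapping ranks, and the remaining one, chr10:81414898-81414954, had no summit in PT replicate 3 or EL replicate 3. Gse1, a subunit of corepressor complexes with lysine demethylase LSD1, held 5 members. Bcl9l and Rai1, a nuclear protein affected in Smith-Magenis syndrome, held 4 each. In Gse1 both members found in every library had PT ranks above EL ranks.

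**Figure D5:**
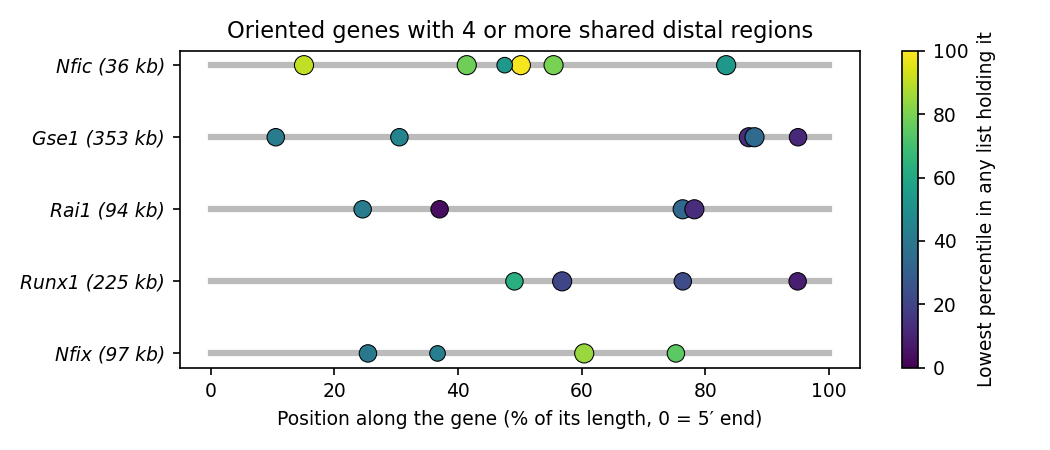
Positions of members along the 5 genes with 4 or more members whose strand was known (x axis, percent of gene length from the 5′ end; 1 row per gene). Colour gives the lowest list percentile of a member among the lists that hold it and larger points were found in more libraries; Nfic, in the top row, holds 6 members, with the strongest near the middle of the gene.

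The members farthest from any gene boundary lay in very long genes. Zfhx3, a homeodomain and zinc finger factor, held 3 of them, 269278, 254718 and 246166 bp from a boundary. The last, chr8:108715360-108715470, nevertheless lay 716 bp from an internal Zfhx3 start, with percentiles of 82.6, 93.8 and 92.3 in PT and 82.2, 85.2 and 30.2 in EL. Camta1, a calmodulin-binding factor, and Nav2, a neuron navigator protein, held members 248332 and 240981 bp from a boundary.

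Transcription factor lists held the highest shares of host genes, each to be read against 3.5% of all eligible genes and against gene length. Among all eligible genes, 3.02% of those of 30 to 60 kb and 6.12% of those of 60 to 120 kb held a member. The lists were written with earlier results of these data known. Of 32 eligible nuclear receptors and their cofactors 10 (31.3%) held a member, with a median gene length over the list of 89.5 kb. Rxra, the common partner of many nuclear receptors, had a member with PT ranks of 74.8, 85.0 and 42.4 and EL ranks of 30.7, 35.4 and 19.6. Rarg held the member with the opposite order given above, and Nr3c1, the glucocorticoid receptor, held a member with overlapping ranks. Nuclear factor I, Klf, Sp, Ets and Runx factors held members in 8 of 28 genes (28.6%, median length 49.9 kb). Nfia had a member with percentiles of 93.3, 97.0 and 96.1 in PT and 99.4, 99.6 and 98.5 in EL. Elk3, an Ets factor, had PT ranks of 85.3, 78.5 and 74.3 and EL ranks of 43.3, 35.4 and 35.7. Nfix held 4 members.

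Members also lay in signalling and adhesion genes. Actin and adhesion signalling genes did so in 10 of 41 cases (24.4%, median length 90.8 kb), among them Wasf2, Arhgap23, Pxn and Actn4. Genes of ERBB and MAPK signalling did in 6 of 39 (15.4%), including Pik3r1, Gab1 and Erbb2 itself. By its coordinates, the Erbb2 region chr11:98419015-98419127 lay in the mouse gene, 6.6 kb from its 5′ end. Whether reads from the HER2/Neu transgene aligned there was not tested. The region had percentiles of 59.1, 80.3 and 80.3 in PT and of 59.6 and 45.6 in EL replicates 1 and 2. It had no summit in EL replicate 3. Transforming growth factor beta and bone morphogenetic protein genes held members in 5 of 31 (16.1%), including Smad3, Tgfb2, Smurf1 and Ski, an inhibitor of SMAD proteins. Ski held 2 members, both found in all 6 libraries, and the lowest list percentile of the first was 81.3. The second Ski region ranked at 2.3, 0.8 and 7.4 in PT and at 48.3, 47.4 and 37.5 in EL. Wnt and Hippo genes did in 4 of 37 (10.8%), where Tead1, a partner of YAP, had PT ranks of 61.1, 75.8 and 78.1 and EL ranks of 46.2, 38.5 and 42.3. Amotl2, a binding partner of YAP, had PT ranks of 5.4, 30.4 and 1.0 and EL ranks of 34.4, 51.1 and 60.4.

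Among lists on cell identity and state, mammary luminal and hormone response genes held members in 4 of 19 (21.1%). Tfap2a, an AP-2 factor, had PT ranks of 61.9, 62.1 and 47.1 and EL ranks of 15.6, 6.5 and 3.7. Trps1, a GATA-type repressor, had PT ranks of 47.4, 54.7 and 57.5 and EL ranks of 22.9, 43.5 and 36.7, while Runx1 and Gata3 completed the list. Genes of epithelial-mesenchymal transition held members in 3 of 28 (10.7%). One was Axl, a receptor tyrosine kinase, with PT ranks of 36.5, 37.1 and 12.5 below EL ranks of 62.6, 46.7 and 53.8, and the others, Pmepa1 and Cald1, had overlapping ranks. Epithelial junction and keratin genes did in 2 of 26 (7.69%), Ctnnd1 and Jup. Chromatin regulators held members in 5 of 52 (9.62%), among them Cbx7, Tet3, Dnmt3a and Kdm2b. Genes of AP-1, Myc, the cell cycle and dormancy did in 4 of 23 (17.4%), namely Per2, Mga, Mnt and Cdkn2a, and RNA processing genes in 2 of 23 (8.70%), Srrm2 and Mbnl1. No member lay in the 16 eligible fibroblast and adipocyte, 13 leukocyte, 13 endothelial or 7 lung epithelial marker genes. These are short lists, and 3.5% of all eligible genes, or 1.22% of those up to 30 kb and 3.02% of those of 30 to 60 kb, held one, so a count of 0 is near the background.

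Some members also lay near noncoding genes inside their hosts. A boundary of a lncRNA gene lay within 1 kb of 36 members (6.27%), against 4.29% of the distal regions inside genes that were not shared. A microRNA gene lay that close to 5 members (0.871%, against 0.325% of those other regions), among them those in Fads1 (Mir6993), Gse1 (Mir7687), Igf2bp1 (Mir3063) and Nfic (Mir1191b), named after their values were seen.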

How the data were processed

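ZFP281 ChIP-seq was deposited as 1 summit list per library for 3 PT and 3 EL libraries, read as pairs of 150 bp. Per the submitters' processing notes, reads were handled with Bowtie2 2.3.4.3 and Picard on build mm10; which peak caller was used, and whether with the inputs, is not given in the sources used here. As the score column has no label, the score the authors deposited was taken for −log10 q, from the values alone (every list's lowest score exceeds 1.30, the −log10 of 0.05), and it only ranks summits within a list. Read depth is unknown, so a longer list can hold weaker sites.

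Summits of chromosomes 1 to 19, X and Y entered, and regions were classed against 21887 RefSeq protein-coding genes (GRCm38), with positions counted from 1. Strand, internal starts and sequence came from RefSeq's promoter windows of 300 bases (GRCm38.p6). Some genes have no such window, so members near their starts can be missed. No genome was used, so exons, introns and base content of the regions themselves were not analysed. Intervals and shares cover counting error only. Tests were exact sign-flip permutations over 6 libraries or exact permutations of 3 against 3, two-sided, in Python 3.11.15 with SciPy 1.17.1; the steps were tested on simulated data.

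Members, gene lists and tests were chosen with earlier results of these data known. The text names the 10 members in all 6 libraries with the highest lowest percentile, the 5 genes holding most members, the 5 members with the largest mean rank difference in each direction among those with ranks that do not overlap, the 5 farthest from a boundary, up to 4 host genes per list and the 2 on either side of the 5 kb limit. Some items that this rule names are not reported here. Comparisons with annotated starts and start windows were added after seeing the data. Alternatives were higher score limits, equal list lengths, other merging and boundary distances, all annotated genes, stricter presence, autosomes, each library left out and a replicate block.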

Additional observations from a re-analysis of the deposited data

How the results depend on the processing

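The number of members was 574, and 229 with scores of at least 10, 253 at equal list lengths, 281 when all 3 libraries of each group were needed, and 377 to 545 with 1 library left out, the lowest without PT replicate 3. Their share of shared regions (19.9%) was 17.2%, 16.4% and 17.9% under the first 3 of these settings, 26.7% over 2 kb and 14.7% over 10 kb from a boundary, and 17.3% with all annotated genes. The share of summits in members, PT minus EL (6.73 points), turned to -0.207 at equal list lengths, was 4.10 with all 3 libraries needed, and 3.83 to 7.53 with 1 library left out, the lowest without EL replicate 2. The percentile difference from boundary regions (-5.18) was -5.63 with merging at 50 bp and -6.13 with all annotated genes, both at exact p = 0.031, but -1.67 (exact p = 0.3125) at equal list lengths, -2.41 (exact p = 0.375) at scores of at least 10 and -3.34 (exact p = 0.0625) with all 3 libraries needed, and -6.35 to -3.25 with 1 library left out. The difference from distal regions between genes (0.156) changed sign at scores of at least 5 (-1.22) and 10 (-0.961), merging at 50 bp (-0.756), 2 kb (-0.918) and 10 kb (-0.578), all 3 libraries needed (-0.131) and autosomes (-0.240), and ran between -1.36 and 0.787 with 1 library left out. Members with ranks that did not overlap (130 of 281) numbered 50 of 122 at scores of at least 10. They numbered 58 of 157 at equal lengths and 80 of 175 with merging at 50 bp. With 1 library left out they numbered 146 to 192, where fewer ranks have to be separate. PT ranks lay above in 22.1%, 17.8% and 28.0% under the first 3 of these settings (all regions: 16.0%, 15.8% and 18.6%). They lay below in 18.9%, 19.1% and 17.7% (all regions: 15.2%, 16.1% and 19.8%). With 1 library left out the share above was 27.3% to 33.9% (all regions: 20.7% to 22.3%). The share below was then 20.9% to 22.3% (all regions: 22.1% to 24.9%). Without members near a start, 31.8% of the rest had PT ranks above EL ranks, against 17.7% of all regions. PT ranks lay below in 18.0% of the rest, against 18.6% of all regions, and the median rank difference was 9.28. The share near a start (20.1%) was 26.0% at scores of at least 10, 27.6% at equal lengths, 15.8% over 10 kb from a boundary, 16.0% with all annotated genes, 12.8%, 16.5% and 24.2% with a reach of 250 bp, 500 bp and 2 kb, and 19.7% to 23.4% with 1 library left out. Leaving out 1 library gives the near-start percentile difference an exact p of 0.0625, the smallest that 5 libraries allow. The causes of these changes were not tested beyond what each setting removes.

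Whether replicate numbers pair the libraries is not known. Same-numbered PT and EL libraries had rank deviations correlated at 0.001992, -0.0638 and 0.00737, and differently numbered ones at -0.06725 to 0.0718. The deviations are from the mean of each group's 3 libraries, so these values cannot exclude pairing. With the replicate block over 3 pairs the rank difference stayed 8.07 (exact p = 0.25, the smallest possible), 165 members had differences of 1 sign in all pairs (32.7% PT above and 26.0% PT below, against 24.3% and 27.1% of all regions found in all 6 lists), and the near-start difference had exact p = 0.25. Of the 27 named members, 16 were still members at scores of at least 10 and 19 at equal list lengths.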
